A study of Mus musculus with 4 samples.

Results

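DNA methylation was examined at 32 developmental regulators of 4 families: 9 Pax genes (paired box), 5 sine oculis homeobox genes (Six2 to Six6), 10 Tbx genes (T-box) and 8 Lhx genes (LIM homeobox), out of 21410 protein-coding genes annotated on the autosomes. The genes were taken by name. Whole-genome bisulfite sequencing (WGBS) reads each cytosine as methylated or unmethylated, and 1 such read at 1 cytosine is a call. The 4 libraries were from mouse colon of strain C57: intestinal stem cells (ISCs) and differentiated epithelial cells, each taken at postnatal day 0 (P0) and at postnatal day 21 (P21, about weaning). The mice were bred from wild-type C57 animals and carriers of the Lgr5-EGFP-CreER knock-in allele (a line backcrossed to C57BL/6 J), in which the Lgr5 promoter drives a green reporter. The P21 animals were chosen as EGFP+ offspring, while whole litters were pooled at P0 with no genotype stated. ISCs were sorted as EGFP+ cells and differentiated cells as EpCAM+ EGFP- cells, from pooled mice. Each group is 1 library, so every difference below compares libraries, has no replicate check, and cannot be told apart from differences between the pools.

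Pax proteins bind DNA through a paired domain, sine oculis and Lhx proteins through a homeodomain (Lhx proteins also hold LIM domains), and Tbx proteins through the T-box. Most are known for patterning organs such as kidney, thyroid, muscle, heart, limb, eye and brain, and Pax4 and Pax6 also act in enteroendocrine cells of the gut. In many tissues that do not express them, genes of this kind lie in wide stretches of CpG-dense, unmethylated DNA occupied by Polycomb proteins. A CpG island (CGI) is a stretch rich in CG dinucleotides that is usually unmethylated where it covers a promoter. The questions were how these genes differed in methylation between P0 and P21 in each population, and between the populations at each age.

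Methylation was summed in bins of 200 bp, and the level of a bin or region is its methylated calls as a percent of all calls. The 32 genes overlapped 5472 bins, of which 3481 held at least 2 CpGs and 3202 had at least 10 calls in every library. Of these, 539 (16.8%) were CGI bins, against 5.29% of the bins of all protein-coding genes. A bin was called between 2 libraries at an adjusted p below 0.05 (Fisher's exact test, two-sided, of methylated against unmethylated calls, Benjamini-Hochberg over 4076373 bins) with a difference of more than 15 percentage points. Bins called between P0 and P21 are named mDMRs and bins called between differentiated cells and ISCs are named dDMRs. Median calls per bin of the 32 genes were 70 for ISCs and 112 for differentiated cells of newborn mice, and 74 and 91 at P21. Over all autosomal bins tested they were lower, at 55 and 81 at P0 and 58 and 68 at P21. Calling depends on depth, so shares of called bins set beside those of all genes may compare bins of unlike depth. Where 4 values follow each other below, they are in this order: ISCs then differentiated cells at P0, followed by ISCs then differentiated cells at P21.

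Sequences that carry main differences, and a last one from a promoter island bin that was not called, are given 5' to 3' on the strand of their gene (mm9). Each CG dinucleotide is in capitals. In the island in intron 2 of Pax8 (a thyroid and kidney regulator), chr2:24329801-24330000 on the minus strand rose in both populations:
Pax8: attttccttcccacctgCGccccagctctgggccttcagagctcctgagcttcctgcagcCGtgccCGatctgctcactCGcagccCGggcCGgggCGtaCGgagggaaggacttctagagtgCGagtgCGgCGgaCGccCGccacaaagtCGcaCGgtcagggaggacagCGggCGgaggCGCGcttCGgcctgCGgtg
At the boundary of intron 7 and the coding part of the last exon of Tbx3 (a limb and heart regulator), chr5:120132601-120132800 on the plus strand rose in both populations:
Tbx3, last exon: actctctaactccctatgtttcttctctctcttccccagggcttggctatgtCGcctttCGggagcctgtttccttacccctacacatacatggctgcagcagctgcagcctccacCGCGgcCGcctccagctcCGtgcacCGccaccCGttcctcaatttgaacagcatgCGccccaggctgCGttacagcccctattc
In intron 1 of Tbx1 (a pharyngeal regulator), chr16:18585801-18586000 on the minus strand has 4 CpGs beside the promoter island and rose in both populations:
Tbx1: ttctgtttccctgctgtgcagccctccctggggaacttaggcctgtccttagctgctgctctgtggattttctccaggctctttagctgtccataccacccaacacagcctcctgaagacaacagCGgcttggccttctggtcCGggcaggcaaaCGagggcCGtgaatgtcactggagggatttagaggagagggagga
In intron 2 of Tbx3, chr5:120124801-120125000 on the plus strand has 3 CpGs and fell in ISCs:
Tbx3, intron: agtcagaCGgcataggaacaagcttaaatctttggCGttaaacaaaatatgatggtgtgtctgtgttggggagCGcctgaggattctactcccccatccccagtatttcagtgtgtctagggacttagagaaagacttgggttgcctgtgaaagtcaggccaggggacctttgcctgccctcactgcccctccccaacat
Upstream of the start of Tbx20 (a cardiac regulator), chr9:24578801-24579000 on the minus strand was unmethylated in nearly all calls, as in most promoter islands of the set:
Tbx20: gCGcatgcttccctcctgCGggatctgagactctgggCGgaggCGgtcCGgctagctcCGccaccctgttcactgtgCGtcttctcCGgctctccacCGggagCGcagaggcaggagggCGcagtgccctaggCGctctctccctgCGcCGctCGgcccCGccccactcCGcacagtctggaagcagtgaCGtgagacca

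The promoter islands of the 32 genes were almost free of methylation in every library, with small upward shifts with age in most genes. CGI bins within 1 kb of the start were present in 29 of 32 genes. The median level over these genes was 0.731%, 0.812%, 1.65% and 1.25%. Over 12579 genes with such bins the medians were 0.809%, 0.658%, 0.863% and 0.667%. The level was higher at P21 than at P0 in 21 of 29 genes in ISCs, with a median difference of 0.53 points, and in 26 of 29 genes in differentiated cells, with a median difference of 0.55 points (0.36 on the cytosines of either strand alone); over all genes 55.5% and 57.2% were higher, with median differences of 0.07 and 0.06 points. These shifts are well under the 15 points needed for a call, and no test over the genes was made.

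The 3 lowest promoter islands in ISCs at P0 were those of Tbx20, Pax1 (a regulator of the vertebral column) and Lhx5 (a forebrain regulator). Tbx20 was at 0.477%, 0.560%, 1.95% and 1.45%. Pax1 was at 0.511%, 0.744%, 1.66% and 0.917%, and Lhx5 at 0.512%, 0.719%, 1.07% and 1.64%. In the printed Tbx20 sequence, 1 of 295, 2 of 885, 12 of 298 and 5 of 400 calls were methylated. The 3 highest in ISCs at P0 were those of Tbx4, Lhx3 and Lhx9. Tbx4, a hindlimb regulator, was at 9.96%, 8.71%, 8.41% and 9.51%. With its 5 bins pooled, the 95% Wilson intervals (counting error only) overlapped in all 4 libraries, from 7.92% to 12.4% in ISCs at P0 and from 8.07% to 11.2% in differentiated cells at P21. However, 1 of these bins, chr11:85699601-85699800, was a dDMR at P0, at 38.5%, 10.9%, 22.6% and 17.4%. It was the only one of the 212 CGI promoter bins called between the populations (0.472% at P0). Over all bins of protein-coding genes 0.508% were called at P0. Lhx3, a pituitary regulator, was at 4.90%, 3.72%, 4.64% and 4.88%. Lhx9, a gonad and limb regulator, was at 4.39%, 1.47%, 3.58% and 6.06%, so the 2 populations lay in opposite order at the 2 ages. Of 212 CGI promoter bins, 1 rose in ISCs and 1 rose in differentiated cells, both in Tbx1. That is 0.472%, near the share of CGI promoter bins of all genes that rose, 0.595% in ISCs and 0.556% in differentiated cells.

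**Figure D1:**
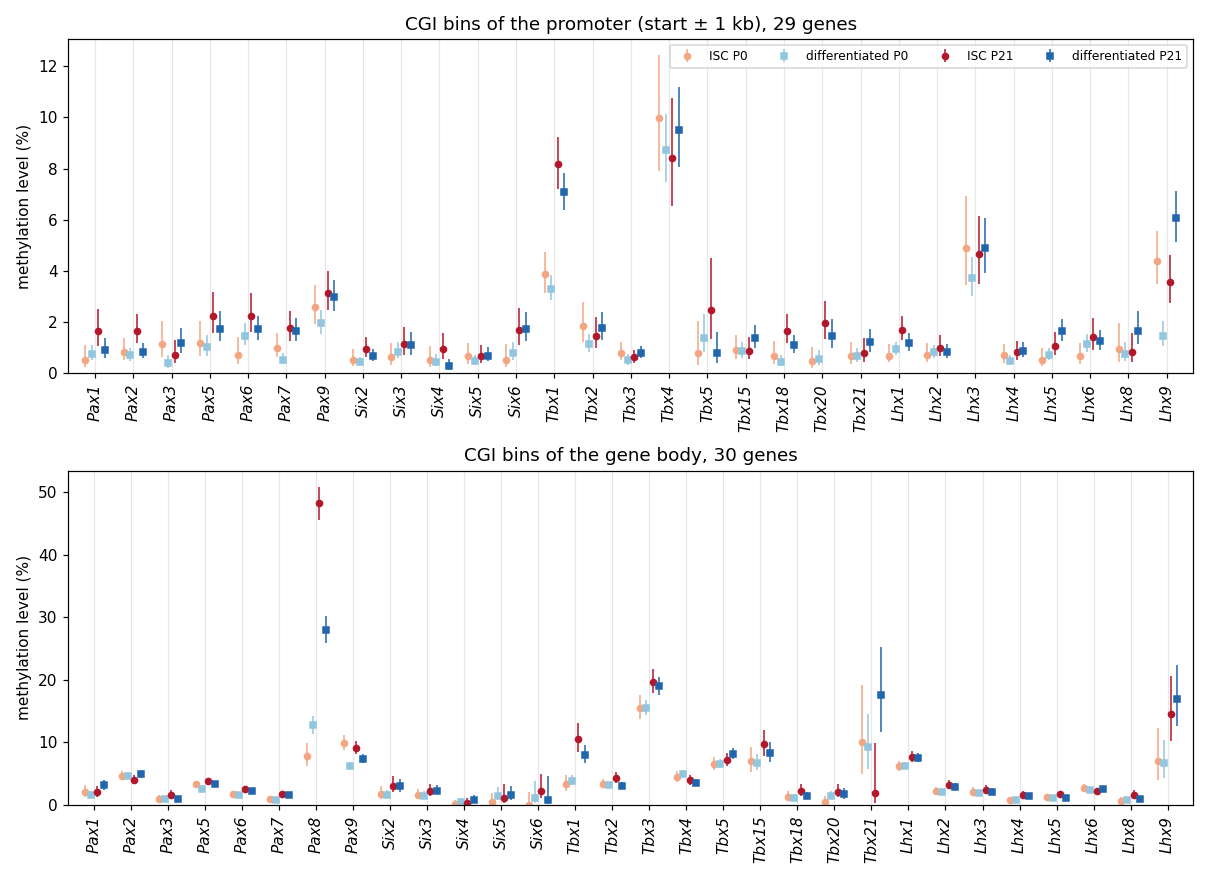
Methylation level in percent (vertical axes, linear from 0) of the CGI bins of the promoter (top, 29 genes) and gene body (bottom, 30 genes) for each gene (horizontal axis) in the 4 libraries; bars are 95% Wilson intervals of the calls. Promoter islands lie below 10% in all libraries, and in the gene bodies Pax8 stands at 48.2% in ISCs at P21.

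The low methylation extended into the genes. Over 296 CGI bins in the gene bodies, the mean bin level was 4.35%, 4.52%, 5.85% and 5.44%, against 47.4%, 47.2%, 48.7% and 48.3% over the 25562 CGI body bins of all protein-coding genes. A level below 10% in all 4 libraries was found in 242 of the 296 bins (81.8%), against 36.5% for all genes. Body bins outside CGIs were also lower, with a mean of 58.7% against 79.9% in ISCs at P0. Family members outside the 32, listed further below, were low too. Their 61 CGI body bins had means of 6.82%, 6.83%, 7.29% and 7.44%. Their other body bins had a mean of 65.7% in ISCs at P0. Starting at the transcription start and moving outward in both directions until 2 tested bins in a row reached 20%, the unmethylated stretch had a median width of 7400 bp, 9000 bp, 8800 bp and 7400 bp in the 29 genes with a CGI promoter. The medians over all 12579 genes were 2000 bp, 2000 bp, 2200 bp and 2200 bp. Pax6, a regulator of the eye, pancreas and enteroendocrine cells, had the widest stretch of the 29, at 34200 bp, 34200 bp, 32200 bp and 34200 bp. From P0 to P21 the stretch was narrower in 11 genes, equal in 12 and wider in 6 in ISCs, and narrower in 17, equal in 9 and wider in 3 in differentiated cells. The median change within a gene was 0 bp in ISCs and -200 bp in differentiated cells, so the median widths above do not give the change with age. Over all genes the median change was 0 bp in each population. Of all genes, 17.8% were narrower and 22.8% wider in ISCs, and 16.3% and 22.5% in differentiated cells. Tbx1 narrowed in ISCs from 7400 bp to 2600 bp, while in differentiated cells it was 3200 bp and 2800 bp wide. These widths depended on the stop rule. At P0 an upstream bin at 49.2% in ISCs was passed because the next was at 11.3%. In differentiated cells the same bins were at 39.3% and 20.5%, which ended the stretch. Further upstream in ISCs at P21, bins at 2.08%, 0% and 0.929% lay among others at 27.6% and 66.7%. The narrowing therefore does not mean that the whole stretch gained methylation. Tbx18 widened in ISCs from 7400 bp to 13600 bp and stayed at 7400 bp in differentiated cells.

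Last-exon islands were mixed. In 8 of 11 genes with CGI bins in the last exon these were below 15% in every library. Tbx5, a heart and forelimb regulator, was at 92.9%, 90.5%, 91.6% and 93.9% in 2 such bins, and Lhx1, a regulator of the head and kidney, at 55.7%, 45.5%, 57.1% and 50.8% in 2 bins. The last exon of Tbx3 lay above the 8 low genes and below Tbx5 in every library and changed with age, as described below. The start regions of 3 genes held no CGI bin. Pax4, a pancreatic and enteroendocrine regulator, was at 57.1%, 59.8%, 57.9% and 63.1% around its start. Tbx6, a regulator of presomitic mesoderm, was at 12.6%, 15.6%, 18.7% and 20.5%, with 1 bin that rose in differentiated cells, from 51.9% to 75.9%. Pax8 was at 77.2%, 78.8%, 90.8% and 88.6%, and 2 of its 6 promoter bins rose in ISCs.

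Between P0 and P21, 89 bins of the 32 genes were called in ISCs (55 gains and 34 losses) and 73 in differentiated cells (43 gains and 30 losses). In CGI bins, 11 of 539 rose (2.04%) and 1 fell (0.186%) in ISCs, against 1.47% and 0.365% of CGI bins of all protein-coding genes; in differentiated cells 10 rose (1.86%) and 0 fell, against 1.33% and 0.308%. In the other 2663 bins, 44 rose (1.65%) and 33 fell (1.24%) in ISCs, against 1.24% and 1.66%, and 33 rose (1.24%) and 30 fell (1.13%) in differentiated cells, against 1.21% and 2.09%. These differences from all genes were not tested, and the 32 genes hold more of their CGI bins in gene bodies: 1 of 212 promoter CGI bins rose in each population (0.472%), where all genes had 0.595% and 0.556%. The calls were uneven among the genes: in CGI bins every ISC gain lay in Pax8, Tbx3 or Tbx1. By place, 3 of 31 last-exon CGI bins rose in ISCs (9.68%) and 4 in differentiated cells (12.9%), where all genes had 6.31% and 5.72%. These shares rest on few genes: the 3 bins are adjacent in Tbx3, and the 4 are the same bins and 1 of Lhx2. In body CGI bins, 7 of 296 rose in ISCs (2.36%) and 5 in differentiated cells (1.69%), where all genes had 2.85% and 2.53%.

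The ISC and differentiated comparisons use different libraries, but whether both populations of an age came from one pool of mice is not stated, so a difference between pools could be common to both. Of their calls 28 bins were shared, which is 31.5% of the ISC calls and 38.4% of the calls in differentiated cells. Over all protein-coding genes these shares were 39.5% and 35.1%. All 28 had the same direction, as did 21085 of the 21239 bins shared over all protein-coding genes. In CGI bins 7 were shared, of 12 and 10. No share over all genes stands beside that count, so nothing is read from it. Of the 55 ISC gains, 50 (90.9%, against 81.9% over all genes) were also higher at P21 in differentiated cells, where their median difference was 15.7 points against 28.5 points in ISCs. Of the 34 ISC losses, 26 (76.5%, against 89.8%) were also lower in differentiated cells, with median differences of -8.05 and -26.14 points. ISC calls were chosen for their size in ISCs, so the smaller medians in the other population are not a test of a difference. Calls were present in 18 genes in each population (56.25%) and in 24 genes in either (75%), where 53.9%, 56.8% and 65.5% of 20960 protein-coding genes with tested bins held a call in ISCs, in differentiated cells and in either. The 32 genes had a median of 58.5 tested bins and all genes 40. The 8 genes without an mDMR in either population were Pax1, Pax4, Six2, Six3, Six6, Tbx20, Lhx1 and Lhx4, with a median of 37 tested bins (19 to 123) against 69.5 in the other 24.

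**Figure D2:**
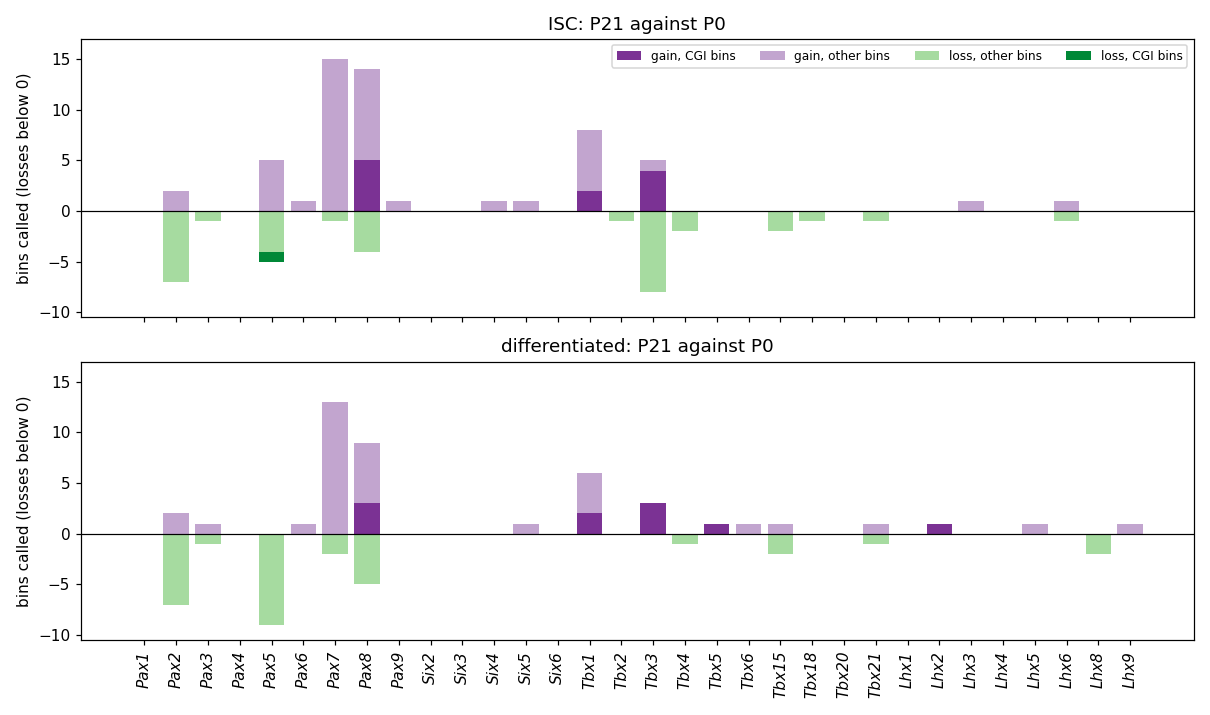
Number of 200-bp bins called between P21 and P0 (vertical axes, gains above 0 and losses below) in each of the 32 genes (horizontal axis), in ISCs (top) and differentiated cells (bottom), with CGI bins in darker shades. Pax7 and Pax8 hold the most gains in both populations (15 and 14 in ISCs, 13 and 9 in differentiated cells), and 8 genes hold none in either direction.

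Among the Pax genes, Pax8 held the longest changed stretch and the largest CGI change. Its 5 CGI bins in intron 2 together were at 7.88% (95% interval 6.19 to 9.97) in ISCs when the mice were newborn and 12.8% (11.4 to 14.3) in differentiated cells of that age, and at 48.2% (45.5 to 50.9) and 28.0% (25.9 to 30.3) when they were 21 days old. The rise was 40.3 points in ISCs (36.9 to 43.5, Newcombe interval) and 15.2 points in differentiated cells (12.6 to 17.9). All 5 bins rose in ISCs and 3 rose in differentiated cells. In the printed sequence, 13 of 228, 63 of 645, 234 of 467 and 137 of 515 calls were methylated. The adjusted p of this bin was 1.6e-31 in ISCs and 2.1e-11 in differentiated cells (two-sided Fisher's exact test). Calls at neighbouring CpGs can come from the same DNA fragment, while the test takes them as independent, so these p-values overstate the evidence. Single CpGs of the bin had 6 to 19 calls in ISCs at P0 and 15 to 28 at P21. All 21 CpGs of the sequence were higher at P21 in both populations, and their median level in ISCs went from 0% (range 0% to 25%) to 50.0% (22.2% to 83.3%). The gain was thus spread over the sequence and did not rest on single CpGs. At P21 the 5 bins were 20.2 points lower in differentiated cells than in ISCs (-23.6 to -16.7), and 3 of them were dDMRs at P21; none was a dDMR at P0.

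The ISC gain at Pax8 ran over 7 adjacent bins, chr2:24329001-24330400, from 13.3% and 16.6% at P0 to 50.5% in ISCs and 32% in differentiated cells at P21. A second run of 3 bins outside the island, chr2:24328201-24328800, went from 25.6% and 26.9% to 72.7% and 61.0%. Both lie in intron 2 of the transcript used and overlap a transcript annotated on the opposite strand, Gm13415. Another annotated start of Pax8 lies 517 to 1317 bp from the 5 CGI bins and 717 bp from the printed one, so most of the island is within 1 kb of an alternative start. Further into the same intron the direction was opposite: at chr2:24308801-24309200 the level fell from 52.9% in both populations at P0 to 6.52% in ISCs and 0% in differentiated cells at P21. The last value is 0 of 56 calls, with an upper 95% limit of 6.42%. The depth here was low, with 51, 51, 92 and 56 calls, and the drop was called in both bins in each population.

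**Figure D3:**
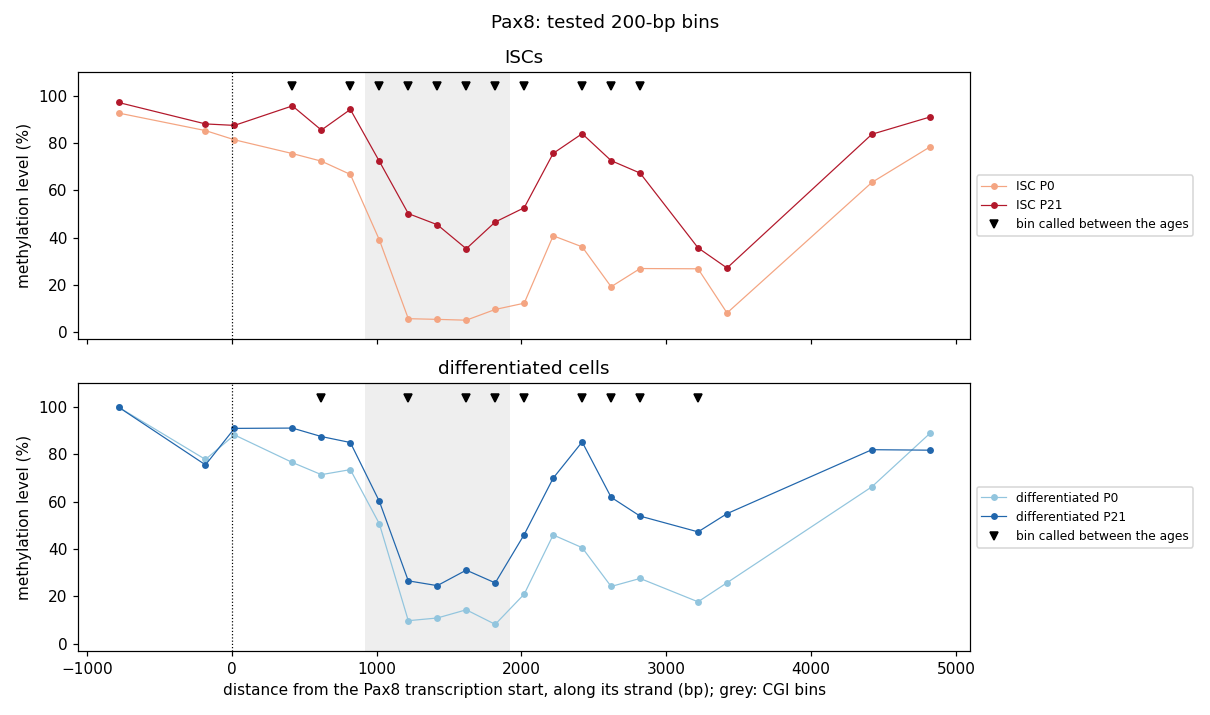
Methylation level in percent (vertical axes) of tested 200-bp bins against the distance in bp from the Pax8 start along its strand (horizontal axis), in ISCs (top) and differentiated cells (bottom) at P0 (light) and P21 (dark); grey marks CGI bins and triangles bins called between the ages. The island is near 5% to 10% at P0 in ISCs in 4 of its bins, and the gain at P21 reaches beyond its downstream edge.

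Pax7, a regulator of muscle progenitors, had gains spread over its large intron 4 and outside its islands. In 135 non-CGI bins of intron 4 the level was 37.1%, 38.5%, 44.6% and 43.9%. Of these bins 14 rose in ISCs and 11 in differentiated cells, 6 of them in both, and 0 fell in either. The difference was above 0 in 96 of the bins in ISCs and in 89 in differentiated cells. Its 9 promoter CGI bins stayed between 0.54% and 1.76%, and its 16 CGI bins in intron 4 between 1.04% and 1.97%. The adjacent ISC gains at chr4:139363801-139364200 went from 24.5% and 27.7% at P0 to 52.8% and 49.9% at P21. Over all 283 non-CGI bins of Pax7, 5.30% rose in ISCs and 4.59% in differentiated cells, against 1.24% and 1.21% over all genes. Losses took 0.353% and 0.707%, against 1.66% and 2.09%, and lay in intron 7. There chr4:139306601-139306800 fell in both populations, from 34.0% and 38.5% to 7.41% and 10.6%. In differentiated cells chr4:139331801-139332000 fell from 34.0% to 13.0%.

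Pax2, a kidney regulator, and Pax5, a B cell regulator, had more losses than gains in differentiated cells, as did the non-CGI bins of all genes (2.09% and 1.21%); losses took 2.90% of the 241 non-CGI bins of Pax2 and 1.69% of the 534 of Pax5. Pax2 had 2 gains and 7 losses in each population, all outside CGIs. The loss in its intron 3 at chr19:44844601-44844800 was called in both, from 32.9% and 41.8% at P0 to 7.89% and 11.2% at P21, with adjusted p of 0.0083 and 4e-07 (Fisher's exact test). Pax5 had 5 gains and 5 losses in ISCs and 9 losses with 0 gains in differentiated cells. Its only ISC CGI loss, chr4:44677601-44677800 in intron 5, was at 28.3% at P0 and 9.86% at P21, while differentiated cells were at 16.5% at both ages. In Pax5, 1 loss in intron 7, chr4:44618401-44618600, was called in both populations, from 69.2% and 59.2% to 0% and 4.76%, with 13 calls in ISCs at P0.

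Of the 5 sine oculis genes, Six4 and Six5 had single gains outside CGIs and there were 0 losses. In their 82 bins outside CGIs, gains took 2.44% in ISCs and 1.22% in differentiated cells, against 1.24% and 1.21% over all genes. Losses over all genes were 1.66% and 2.09%, so with so few bins nothing is read from their absence. The bin at chr7:19681401-19681600, at the edge of exon 2 of Six5, rose from 1.87% and 12.6% to 27.5% in ISCs and 33.1% in differentiated cells, with adjusted p of 1.7e-05 and 0.0095 (Fisher's exact test). Six2, Six3 and Six6, regulators of kidney progenitors, forebrain and retina, had none.

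Among the Tbx genes, Tbx3 gained at both ends of its region and lost in between. The promoter island of Tbx3 was at 0.80%, 0.50%, 0.62% and 0.79%. The 3 CGI bins of its last exon, chr5:120132601-120133200, were at 32%, 36.5%, 63.0% and 55.4%. They rose by 31.0 points in ISCs (25.5 to 36.2) and 18.9 points in differentiated cells (15 to 22.7), and all 3 bins were called in each. The levels differed between the strands, with 17.1% on the plus and 37.2% on the minus strand in ISCs at P0 and 66.0% and 51.1% in differentiated cells at P21, while the rise was present on both: 35.6 and 29.9 points in ISCs and 27.2 and 15.3 points in differentiated cells. In the printed last-exon sequence, 9 of 10 CpGs had at least 5 calls in every library, and all 9 were higher at P21 in both populations. The sizes were uneven: the CpG at position 172 hardly differed with age, at 69.2%, 56.8%, 70.0% and 57.6%. In exon 7, a CGI bin at chr5:120130601-120130800 was at 9.23%, 22.5%, 25.5% and 26.4% and rose in ISCs.

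Inside the gene, 8 bins outside CGIs with their middles from 2273 to 4273 bp after the start fell in ISCs. A run of 3 bins, chr5:120124801-120125400 (intron 2, exon 3 and intron 3), was at 47.1%, 33.9%, 14.7% and 23.3%. Another run of 3 bins, chr5:120124001-120124600, was at 32%, 24.1%, 8.97% and 18.5%. In differentiated cells 0 of these 8 bins were called, and 0 were called between the populations at either age. The difference between the 2 populations' changes was not tested. In the non-CGI body bins together, the change was -13.0 points in ISCs (-15.7 to -10.3) and -6.14 points in differentiated cells (-8.36 to -3.90). As a mean of bin levels the changes were -9.86 points in ISCs and -3.64 points in differentiated cells. On the minus strand alone they were -9.29 and -4.02 points, and on the plus strand alone -15.88 and -7.25 points. Upstream of the promoter, outside the bins counted for the gene, a run of gains ended 1227 bp before the start: of 15 tested bins between 5 kb and 1 kb upstream, 13 rose in ISCs and 7 in differentiated cells, and 4 were lower in differentiated cells than in ISCs at P21. The 13 bins were at 27.2%, 35.9%, 71.5% and 58.3%. The unmethylated promoter of Tbx3 therefore lay between gains upstream and losses downstream in ISCs.

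**Figure D4:**
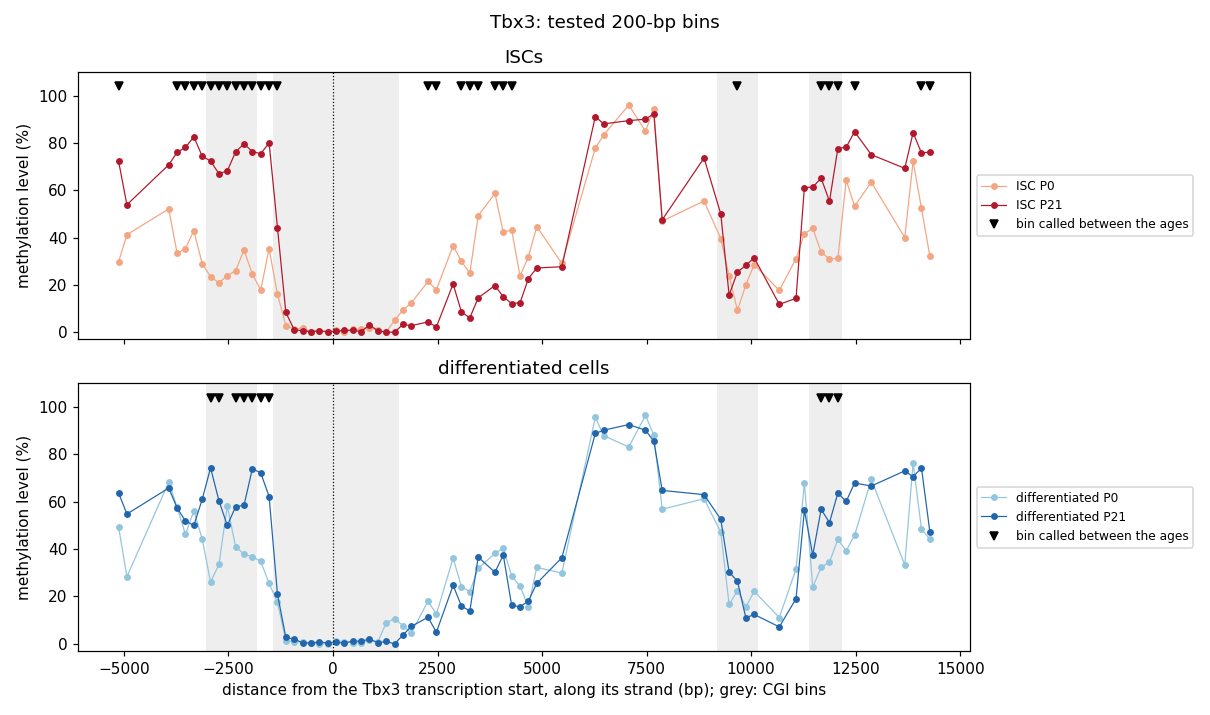
Methylation level in percent (vertical axes) of tested 200-bp bins against the distance in bp from the Tbx3 start along its strand (horizontal axis), in ISCs (top) and differentiated cells (bottom) at P0 (light) and P21 (dark); grey marks CGI bins and triangles bins called between the ages. In ISCs the level is higher at P21 upstream of the promoter island and in the last exon, and lower in the 8 called bins after the promoter.

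Tbx1 had gains from the edge of its promoter island through introns 1 to 4. Gains were also called upstream, outside the bins counted for the gene. The bin centred at -2038 bp from the start was at 10.3%, 3.99%, 31.3% and 23.0%. The bin at -2238 bp was at 49.2%, 39.3%, 78.5% and 77.4%, and both rose in each population. The bins at -1838 and -5238 bp were called in ISCs only. The 11 body bins outside CGIs were at 39.3%, 43.0%, 71.8% and 64.7%, a rise of 32.5 points in ISCs (28.0 to 36.7) and 21.7 points in differentiated cells (18.1 to 25.2). The longest ISC run, chr16:18585401-18586200, was at 21.1%, 24.2%, 52.7% and 47.9%. The printed bin went from 26.6% and 28.7% to 86.9% and 82.6%, with adjusted p of 4.1e-14 and 1.1e-20 (Fisher's exact test), and each of its 4 CpGs rose to between 86.2% and 87.9% in ISCs. In the promoter island, the bin at chr16:18586001-18586200 rose in ISCs (6.87% to 22.7%) and the next, chr16:18586201-18586400, in differentiated cells (12.8% to 30.9%). The CGI bins of the last exon had a pooled level at or below 0.711% in all libraries. In intron 4 a CGI bin, chr16:18583201-18583400, was at 9.28%, 15.3%, 40.3% and 38.8% and was called in both populations.

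**Figure D5:**
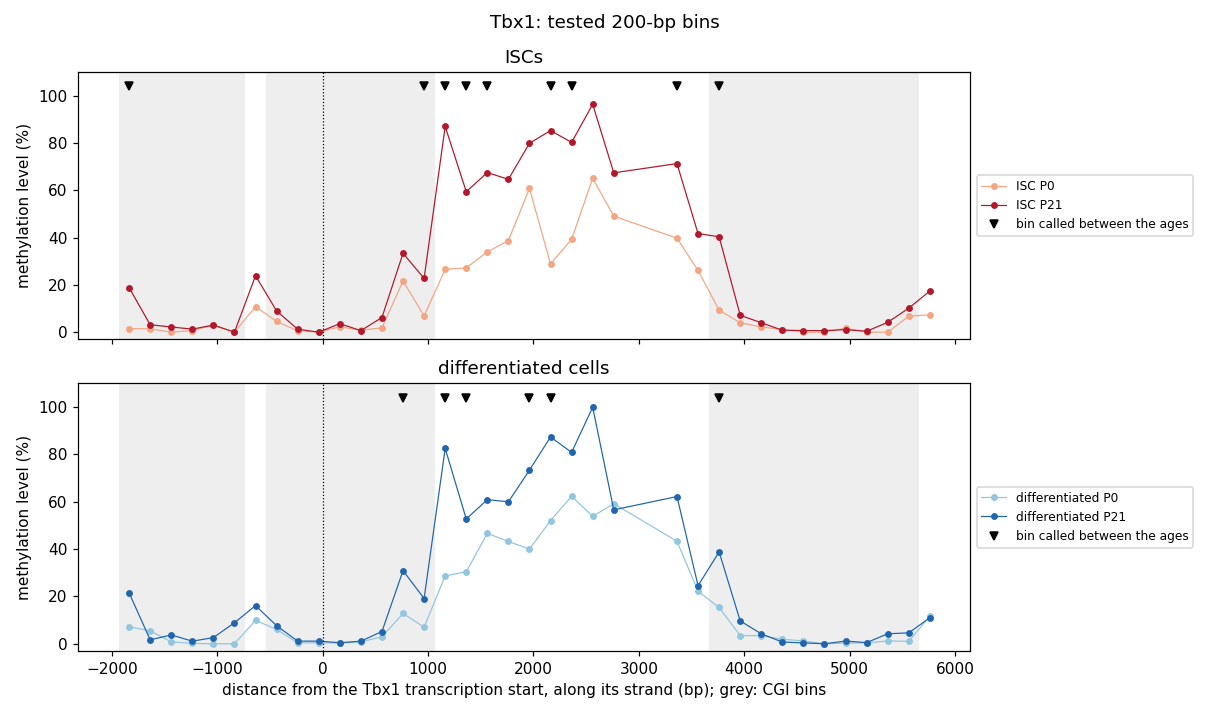
Methylation level in percent (vertical axes) of tested 200-bp bins against the distance in bp from the Tbx1 start along its strand (horizontal axis), in ISCs (top) and differentiated cells (bottom) at P0 (light) and P21 (dark); grey marks CGI bins and triangles bins called between the ages. In the plotted stretch, which leaves out called bins further upstream, 1 bin upstream of the start is called in ISCs and the other called gains lie from the downstream edge of the promoter island into the gene body; the CGI bins of the last exon are together at or below 0.711%.

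In the other Tbx genes calls were few. Tbx5 had 1 CGI bin in intron 7, chr5:120317201-120317400, at 35.6%, 16.5%, 25.5% and 31.9%, which rose in differentiated cells and was also a dDMR at P0. On the plus strand cytosines alone the CGI body of Tbx5 changed by 3.47 points in differentiated cells, and on the minus strand alone by -0.79 points. Tbx2, Tbx4, Tbx15, Tbx18 and Tbx21 each had 1 or 2 losses and 0 gains in ISCs. In this order, the losses took 4.55%, 2.60%, 1.15%, 2.33% and 1.89% of their bins outside CGIs, against 1.66% over all genes. In differentiated cells Tbx4 had 1 loss, Tbx15 had 1 gain and 2 losses, and Tbx21 had 1 gain and 1 loss. Tbx2 and Tbx18 had 0 calls there.

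In the Lhx genes 3 of 507 bins were called in ISCs (0.592%) and 5 in differentiated cells (0.986%), where the 32 genes together had 2.78% and 2.28% and all protein-coding genes 2.85% and 3.21%. All ISC calls were single bins outside CGIs. Lhx6, an interneuron regulator, had a gain in intron 9 (59.4%, 81.7%, 86.4% and 84.9%) and a loss in intron 4 (43.1%, 25.8%, 14.7% and 34.2%). The only Lhx call in a CGI was in the untranslated end of Lhx2, a forebrain regulator, chr2:38224801-38225000, at 32.3%, 17.6%, 27.2% and 44.8%, which rose in differentiated cells. Its level depended on the strand read: the last-exon CGI bins of Lhx2 were at 12.4% and 31.5% in differentiated cells at P0 and P21 on the plus strand, and at 1.48% and 0.22% on the minus strand. A CpG is palindromic and is usually methylated on both strands, so this gain is uncertain.

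Between the populations, 20 bins of the 32 genes were called at P0 (9 higher and 11 lower in differentiated cells), which is 0.625% of 3202 against 0.508% for all genes. At P21 there were 9 (3 higher and 6 lower), 0.281% against 0.182%. No bin was called at both ages; over all genes such bins were 1.74% of the P0 calls and 4.86% of the P21 calls, so with 20 and 9 calls nothing is read from this. Of the 5 CGI bins among the 9, 3 were those of the Pax8 island. At P0, 4 of the 566 tested bins of Pax5 were called, all higher in differentiated cells. Over all genes the share was 0.508%, so nothing is read from this count. The largest difference was at chr4:44546201-44546400, at 22.7% in ISCs and 81.0% in differentiated cells. That bin had 22 and 42 calls.

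Other genes of the same kind were compared from lists. Of 9 family members outside the 32 (Tbx10, Tbx19, Eomes, Tbr1, Mga, Isl1, Isl2, Lmx1a and Lmx1b), 3 of 123 CGI bins rose (2.44%) and 2 fell (1.63%) in ISCs, against the 1.47% and 0.365% of all genes, and 0 were called in differentiated cells. Of their 863 other bins, 1.74% rose and 1.27% fell in ISCs, against 1.24% and 1.66%, and 1.16% and 1.85% in differentiated cells, against 1.21% and 2.09%. Of 7 partners of sine oculis and LIM proteins (Eya1 to Eya4, Dach1, Ldb1 and Ldb2), 0 of 56 CGI bins were called in either population, where all genes had 1.47% and 1.33% gains. Of their 2060 other bins, 1.21% rose and 1.02% fell in ISCs, and 0.583% and 1.26% in differentiated cells.

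The sort was checked on promoters of marker genes. Of 8 epithelial markers, 6 were below 11% in every library, Slc26a3 was at 28.2%, 24.2%, 11.9% and 9.85% and Tff3 was between 55.4% and 67.8%. The 3 stem cell markers (Lgr5, Ascl2 and Axin2) were below 7% in every library, so they do not separate the populations. The promoters of 5 immune markers were between 67.1% and 89.0% and of 3 endothelial markers between 67% and 80.4%, and the 5 mesenchymal markers ranged from 0.249% to 51.8%. The part of other cells in the results was not tested. Total calls were between 1023427645 and 1188114423 per library, but 50.5% to 63.7% of them fell at positions with over 1000 calls.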

How the data were processed

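WGBS libraries were made from sorted colonic cells, 1 library for each of the 4 groups. Per the labels and the study's methods, the authors trimmed paired-end reads and mapped them to mm9 with Bismark (Bowtie is also named), with versions and any removal of duplicates not given in the sources used here, so calls may not be independent molecules and all intervals cover counting error only. The deposited files give counts per CpG cytosine and strand: all calls and methylated calls. They also hold the ratio of these counts as a fraction, which the authors computed; it was checked and not used.

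Calls of both strands were summed in 200-bp bins on autosomes, keeping bins with at least 2 CpGs and 10 calls in all 4 libraries. A CGI is a stretch with at least 25 CpGs in 500 bp, and a CGI bin has at least 100 bp in one. Each gene was taken as its GENCODE M1 transcript with the longest coding sequence; a bin belongs to the promoter (1000 bp on either side of the start), else the last exon, else the body. The two-sided Fisher's exact test (numba 0.67.0, numpy 2.4.6) was run on every bin with Benjamini-Hochberg adjustment, called at 0.05 and more than 15 points, and tested on simulated data. The simulated calls were independent draws, so that check does not cover shared fragments, duplicates or differences between pools. The test compares libraries, not conditions. It takes each call as independent, although calls at neighbouring CpGs can come from the same DNA fragment. The members, gene lists, the 20% limit of the unmethylated stretch and other choices were made with earlier results of these data known. Genes named with values are the 8 with most mDMRs (CGI bins first), those with the longest ISC runs of each family, the 3 highest and 3 lowest promoter islands, those without a promoter island and, by name only, those without an mDMR; others were named after their values were seen. Alternatives were 20 calls, 4 CpGs, 30 points, no test, thinned calls, bins shifted by 100 bp, CGIs of 35 CpGs, promoters of 500 bp, each strand alone and the mean of bin levels. A comparison with a list of gut endoderm regulators is not reported here.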

Additional observations from a re-analysis of the deposited data

Results flagged for a closer look

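In 2 bins a change was called in differentiated cells while the ISC libraries differed by more than 15 points in the other direction; the difference between the populations' changes was not tested. In intron 9 of Pax5, chr4:44546201-44546400, differentiated cells fell from 81.0% to 33.3% and ISCs went from 22.7% to 56.7%, a difference of 33.9 points from 22 and 30 calls. In intron 4 of Pax7, chr4:139361201-139361400, differentiated cells rose from 32.4% to 54.1% and ISCs went from 46.2% to 28.2%, a difference of -18.0 points from 91 and 71 calls.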

How the results depend on the processing

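No paired analysis was possible because the labels give no replicate numbers and each group is 1 library; a fit of age over both populations with population as a term was not run. At a minimum of 30 points, the 89 ISC mDMRs became 41, the 73 differentiated mDMRs 22, the 20 dDMRs at P0 3, the 9 dDMRs at P21 2, and the 10 CGI gains of differentiated cells 0. With 15 points and no test these counts were 418, 319, 289 and 310, and with calls thinned to the lowest library 59, 37, 7 and 4. Thinning retained 57 of the 89 ISC bins and 28 of the 73 differentiated bins. With CGIs of 35 CpGs, CGI gains were 5 in ISCs (11 before) and 3 in differentiated cells (10 before), by construction, since fewer bins count as CGI. These counts stayed within 1.5 times under 20 calls, 4 CpGs, bins shifted by 100 bp and 500-bp promoters, except that with 4 CpGs the losses outside CGIs went from 33 to 20 in ISCs and from 30 to 14 in differentiated cells. The median changes of promoter and body islands stayed above 0 in all 5 alternatives, and moved by over 1.5 times in differentiated promoters on plus or minus strand cytosines alone (0.36 points on each, from 0.55), in ISC bodies on minus strand cytosines (0.39, from 0.76) and in differentiated bodies with CGIs of 35 CpGs (0.34, from 0.66). For the named regions, 3 of 28 changes turned sign on minus strand cytosines alone: the CGI body of Tbx5 in both populations (-0.58 points, from 0.62, in ISCs and -0.79, from 1.57, in differentiated cells) and the last-exon CGI of Lhx2 in differentiated cells (-1.26, from 6.28). The cause was not tested. The gains of Pax8 (32.9 and 44.1 points in ISCs on the 2 strands) kept their direction. Depth limits the size of change that can be called: the median was 70 to 112 calls per tested bin of the 32 genes.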
